A study of Sus scrofa with 6 samples.

Results

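ZNF genes encode zinc finger proteins, most of them of the C2H2 kind, in which pairs of cysteines and histidines hold a zinc ion and fold a short finger that reads DNA bases. Many carry a KRAB domain that recruits the corepressor TRIM28 and the H3K9 methyltransferase SETDB1, and such proteins are known from mouse and human embryos to silence transposable elements and to guard methylation at imprinted genes. Others lack that domain and activate promoters, bind RNA or act in ribosome assembly, ubiquitin transfer or mitosis. Roles given here are those known from human or mouse proteins. The genes were chosen as those named ZNF followed by digits alone, with 1 symbol left out, whose level averaged at least 1 FPKM over 6 libraries of pig embryos. FPKM is fragments scaled by transcript length and by the mapped total of the library, summed here over the transcripts of a gene. Of 241 such genes in the table, 125 met this mean, 116 were under it, and 6 of the latter were listed at 0 in every library. Of the 125 genes, 124 are annotated as protein coding. The mean over all libraries chose the genes, so the levels that follow are a description, and counts over the chosen genes support nothing on their own. For 6 of them the control mean alone was under 1 FPKM, and for 4 the knockdown mean.

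All libraries were made from 8-cell embryos of the pig, Sus scrofa, a stage close to the time when the embryo takes over transcription from stores of the egg. Controls, with genotype and treatment both given as Control, numbered 3, and knockdowns, with genotype LncT KD and siRNA injection as treatment, numbered 3. The protocol field of all 6 libraries names siRNA injected into the cytoplasm, and the labels do not say whether controls received an siRNA, nor how many embryos entered a library. They also do not say that replicates came from separate collections, so the spread behind each p-value may be technical only. The comparison asks how transcript levels differ under siRNA against the transcript named LncT, but that transcript was not identified in the table and its own level was not checked.

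Relative depth, as deposited coverage per FPKM, ranged from 6.29 to 9.41 across libraries. Of 19 oocyte and early embryo markers, 13 were at 1 FPKM or more in every library, among them the oocyte growth factor GDF9. The summed level of these markers was 5544 to 6003 FPKM in controls 1 and 2, 2315 in control 3 and 2979 to 3535 in the knockdowns. BTG4 (2392, 2147 and 832 FPKM in controls 1 to 3) and H1FOO (1259, 1054 and 245) weighed heavily in these sums. DPPA3 was instead highest in control 3 (413, 368 and 468 FPKM in controls 1 to 3). Of 16 markers with a mean of at least 1 FPKM, 14 had a lower mean log2(FPKM + 1) in knockdowns. The other 2, ZP4 and POU5F1, had a higher one. Markers of other cells were low. The 14 cumulus and granulosa genes summed to 15.4 to 23.94 FPKM in controls and 23.95 to 26.4 in knockdowns. The groups were thus split only by the narrow gap between control 1 (23.94) and knockdown 2 (23.95). These sums include NR5A2, whose values are given below. Of these, INHBA, FST and SERPINE2 were above 1 FPKM in every library, CYP11A1, INHA and FOXL2 were at 0 in every library, and FSHR and AMH were at or near 0. TNFAIP6, a cumulus matrix gene, was at 0.0864, 0.352 and 0.537 FPKM (controls 1 to 3) against 1.59, 1.46 and 1.74 (knockdowns 1 to 3). Other genes of the list went either way. INHBA was at 6.32 and 5.17 FPKM (means of controls and knockdowns), FST at 5.81 and 4.96 and CYP19A1 at 0.352 and 0.190. SERPINE2 was at 4.28 and 5.54 FPKM, STAR at 0.858 and 1.30 and PTX3 at 0.0259 and 0.0437. Summed levels were 1.84 to 3.30 for 8 blood genes, 1.66 to 3.78 for 9 stromal genes and 3.05 to 10.9 for 9 sperm genes. NR5A2, on the cumulus and granulosa list and also active in early embryos, was at 0, 0.234 and 5.63 FPKM (controls 1 to 3) against 5.05, 7.34 and 5.66 (knockdowns 1 to 3). The part of any of these levels in the ZNF results was not tested. Control 3 stood apart from the other controls in the ZNF genes too. Across the 125 genes, which are not independent, Spearman's rho was 0.937 between controls 1 and 2, 0.567 and 0.629 between control 3 and each of them, and 0.904 to 0.949 between control 3 and the knockdowns. The median absolute difference on the log2(FPKM + 1) scale was 0.21 between controls 1 and 2, 0.73 and 0.72 between each of them and control 3, and 0.24 to 0.39 between control 3 and the knockdowns. The labels give control 3 as a control, and nothing in them settles whether that is right, so each control mean and each change over 6 libraries rests on that label. Changes were therefore also computed without control 3. That library was left out after its values were seen, and leaving out the control nearest the knockdowns can by itself widen the gap between groups. Changes, p-values and passing genes without control 3 are thus a description throughout, and their p-values cannot be taken at face value. In bulk libraries, fewer cells with a transcript and less of it per cell cannot be told apart.

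Most ZNF genes were weakly expressed, with a median of 4.51 FPKM over the mean levels of the 125 genes against 6.66 over the 10417 genes of any kind with a mean of at least 1 FPKM. A mean of 10 FPKM was reached by 35 genes, of 20 by 20 genes and of 50 by 2. ZNF22, a finger protein known from tooth development, was the most abundant (mean 130.2 FPKM, chromosome 14, 91092440 to 91096888 in Sscrofa11.1). It was at 97.2, 103 and 149.6 FPKM in controls 1 to 3 against 140.3, 149.5 and 142 in knockdowns 1 to 3. Controls 1 and 2 were the lowest libraries for this gene, and control 3, with the highest value, overlapped the knockdowns. The log2 change, the mean log2(FPKM + 1) of knockdowns less that of controls, was 0.33, or 0.52 without control 3 (adjusted p = 0.0995 in limma, a linear model fitted to every gene tested). It alone made up 8.44% to 12.2% of the summed FPKM of the 125 genes.

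ZNF829, a KRAB protein of the large chromosome 6 run described further on, was at 53.1, 70.8 and 50.8 FPKM in controls 1 to 3 against 51.4, 48.2 and 38.8 in knockdowns 1 to 3, so the groups overlapped and the highest value was in control 2. ZNF667, another KRAB protein, was at 61.4, 52.9 and 38.4 FPKM in controls 1 to 3 against 42.7, 46.6 and 44.4 in knockdowns 1 to 3. ZNF706, a small protein with a single finger, was at 46.8, 38.8 and 30.8 FPKM in controls 1 to 3 against 25.5, 39.6 and 33.1 in knockdowns 1 to 3. The groups overlapped in all 3 genes, with log2 changes of -0.32, -0.16 and -0.24, or -0.41, -0.35 and -0.39 without control 3 (limma adjusted p = 0.252, 0.267 and 0.299). ZNF883 was at 28.5, 23.9 and 33.1 FPKM (controls 1 to 3) against 24.0, 41.0 and 17.3 (knockdowns 1 to 3), with the lowest and the highest value both among the knockdowns. The remaining genes among the 8 with the highest means were ZNF389, ZNF134 and ZNF436, and these varied far more between libraries. ZNF134 was at 18.01, 8.99 and 48.4 FPKM in controls 1 to 3 against 27.6, 40.8 and 53.0 in knockdowns 1 to 3. Its 2 lowest libraries were controls 1 and 2, while control 3 lay inside the knockdown range. ZNF436, a KRAB protein, ran the other way, at 45.9, 51.5 and 10.6 FPKM in controls 1 to 3 against 16.4, 26.4 and 20.5 in knockdowns 1 to 3, and here control 3 was the lowest of all.

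As a group, the ZNF genes took shares of the libraries that overlapped between controls and knockdowns. Their summed level was 1152, 1137 and 1227 FPKM in controls 1 to 3 against 1174, 1319.9 and 1263 in knockdowns 1 to 3, or 0.219% ± 0.0231 of TPM (a transcript's length-scaled share of its library) in controls and 0.216% ± 0.0340 in knockdowns (SD, n = 3). The number of these genes at 1 FPKM or more was 100, 103 and 113 in controls 1 to 3 against 119, 120 and 117 in knockdowns 1 to 3. Among these chosen genes the knockdowns thus lay above every control, and control 3 lay nearest to them. Over all 241 ZNF genes the counts were 106, 105 and 123 (controls 1 to 3) against 122, 128 and 124 (knockdowns 1 to 3). There control 3 exceeded knockdown 1, and the groups overlapped. Of all genes of the table, 9237, 9490 and 10335 were at 1 FPKM or more in controls 1 to 3 against 9940, 10577 and 10413 in knockdowns 1 to 3, with control 3 inside the knockdown range. In every library, 81 of the 125 genes were at 1 FPKM or more. Another 18 were under 1 FPKM in both controls 1 and 2. All 18 were at 1 FPKM or more in control 3, and 16 of them were so in all knockdowns. A gene under 1 FPKM in controls 1 and 2 could reach the mean of 1 FPKM only through the other libraries. These counts are therefore a description. So are the changes and p-values of those 18 genes, among them ZNF691, ZNF12, ZNF25, ZNF410, ZNF330, ZNF384 and ZNF891. The level of a gene differed between its highest and lowest library by less than 2-fold for 33 genes and by more than 5-fold for 36.

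**Figure D1:**
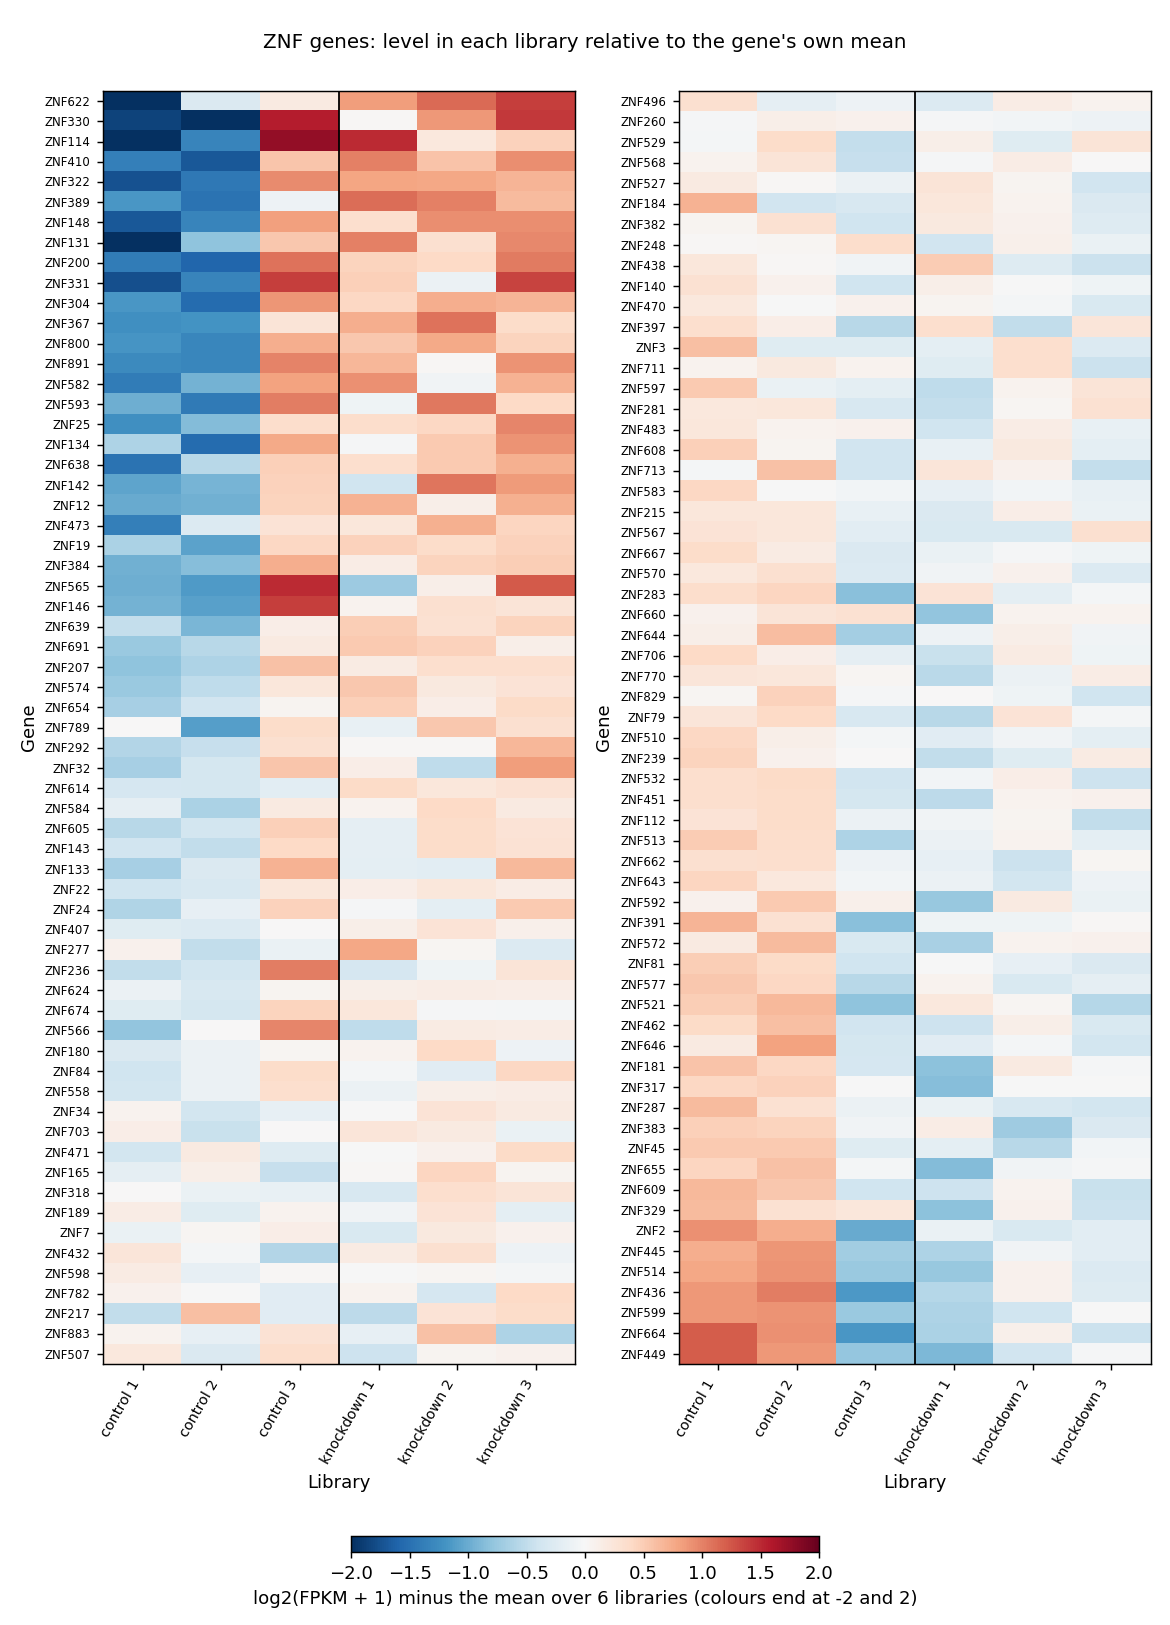
Level of each of the 125 ZNF genes (rows) in the 6 libraries (columns), as log2(FPKM + 1) minus the mean of that gene over the 6 libraries, in colours that end at -2 and 2. Rows are ordered by the log2 change without control 3, and the upper left and lower right rows show control 3 in the colour of the knockdowns rather than of controls 1 and 2.

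With 6 libraries no ZNF gene passed the adjusted threshold. The test was limma on log2(FPKM + 1) over all 10417 genes, two-sided, with Benjamini-Hochberg adjustment at 0.05, and 0 of the 125 genes passed, as did 0% of all genes tested. The smallest limma adjusted p among the 125 genes was 0.775, also the smallest of any gene. At an unadjusted p under 0.05 there were 6 ZNF genes, 4.8% of them, all higher in knockdowns, where 3.6% of all tested genes were called higher and 0.586% lower. Higher genes also outnumbered lower ones in other settings, though not always without lower ones. After quantile normalization 4 ZNF genes were higher and 2 lower (3.2% and 1.6%, against 2.84% and 1.94% of all tested genes). After median-of-ratios scaling 4 were higher and 1 lower (3.2% and 0.8%, against 2.54% and 0.998%). With TPM 8 were higher and 0 lower (6.4% and 0%, against 4.09% and 0.461%). With the replicate number as a block 11 were higher and 0 lower (8.8% and 0%, against 6.58% and 0.595%). Log2 changes were above 0 for 64 genes and below 0 for 61. Of all genes tested, 50.4% were above 0. The median log2 change was 0.010 for the ZNF genes and 0.0050 for all tested genes, and the central 80% ran from -0.49 to 1.15 for the ZNF genes and from -0.51 to 1.16 for all tested genes. The spread of ZNF changes was thus close to that of genes in general. At least 1 on this scale was reached by 19 genes on the higher side and 0 on the lower. The 95% interval lay within a log2 change of -1 to 1 for 42 genes, and for the others it reached -1, 1 or both.

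The groups did not overlap for 15 ZNF genes. In 9 of them every knockdown was above every control (7.2% of the ZNF genes, against 4.38% of all tested genes), and in 6 every knockdown was below (4.8% against 2.86%). The former were ZNF389, ZNF367, ZNF410, ZNF622, ZNF639, ZNF614, ZNF654, ZNF407 and ZNF624, and the latter ZNF329, ZNF287, ZNF660, ZNF643, ZNF510 and ZNF260. After quantile normalization the split turned to 7 higher and 9 lower (5.6% and 7.2%, against 3.02% and 5.69% of all tested genes). After median-of-ratios scaling 4 were higher and 7 lower (3.2% and 5.6%, against 3.19% and 4.62%). With TPM it did not turn, with 11 higher and 4 lower (8.8% and 3.2%, against 3.92% and 2.07%).

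ZNF389 (chromosome 7, 22007384 to 22011998), a gene with a single transcript row, had the smallest p of the 125 genes. It was at 11.5, 9.17 and 25.2 FPKM in controls 1 to 3 against 60.3, 55.8 and 42.7 in knockdowns 1 to 3. Every knockdown was above every control, and control 3 was the highest control by a wide margin. The log2 change was 1.84 ± 0.43 (SE), or 2.24 without control 3 (limma adjusted p = 0.775 with 6 libraries and 0.00128 without control 3). ZNF367 (chromosome 10, 25707711 to 25735073), a transcriptional activator described in human erythroid cells, was at 8.83, 9.05 and 26.5 FPKM in controls 1 to 3 against 37.4, 48.2 and 28.7 in knockdowns 1 to 3. Its lowest knockdown lay just above control 3. The log2 change was 1.46 ± 0.48 (SE), or 1.94 without control 3 (limma adjusted p = 0.00287).

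ZNF410 (chromosome 7, 97197974 to 97246687), an activator of the nucleosome remodeller gene CHD4 in human and mouse cells, was at 0.286, 0.0292 and 3.88 FPKM in controls 1 to 3 against 5.71, 3.93 and 5.30 in knockdowns 1 to 3. The separation from control 3 was narrow, since the lowest knockdown exceeded it by little. CHD4 itself was at 15.1, 12.7 and 13.6 FPKM (controls 1 to 3) against 8.72, 13.9 and 20.1 (knockdowns 1 to 3), with a log2 change of -0.023 (95% interval -0.89 to 0.84), or -0.031 without control 3. The change of ZNF410 was 1.67 ± 0.59 (SE), or 2.37 without control 3 (limma adjusted p = 0.00120). Its span overlaps that of the protein coding gene FAM161B, which leaves its values uncertain. ZNF622 (chromosome 16, 5699740 to 5714824), a maturation factor of the large ribosomal subunit, had the largest log2 change of the 125 genes, 2.23 ± 0.86 (SE). It was at 0.209, 8.29 and 11.97 FPKM in controls 1 to 3 against 19.3, 24.0 and 28.7 in knockdowns 1 to 3. Control 1 was far below the other libraries. Without control 3 its change was 2.88 (limma adjusted p = 0.0278).

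ZNF25, a KRAB protein, was at 0.198, 0.529 and 2.59 FPKM in controls 1 to 3 against 2.56, 2.73 and 4.54 in knockdowns 1 to 3, and control 3 lay inside the knockdown range. ZNF131, a finger protein with a BTB domain, was at 0.326, 2.08 and 6.85 FPKM in controls 1 to 3 against 9.81, 5.73 and 9.53 in knockdowns 1 to 3, again with control 3 among the knockdowns. ZNF639, known as ZASC1 in human squamous carcinoma, was at 11.7, 8.38 and 18.4 FPKM in controls 1 to 3 against 23.8, 20.9 and 23.1 in knockdowns 1 to 3, and its groups did not overlap. The log2 changes of these 3 genes were 1.16 ± 0.46 (SE), 1.53 ± 0.64 (SE) and 0.83 ± 0.36 (SE). Without control 3 they were 1.63, 2.18 and 1.11, and all 3 genes passed (limma adjusted p = 0.00764, 0.00886 and 0.0178).

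ZNF614, a KRAB protein, was at 1.92, 1.88 and 2.20 FPKM in controls 1 to 3 against 3.80, 3.34 and 3.50 in knockdowns 1 to 3. Here control 3 stood near the other controls, and the log2 change was 0.60 ± 0.26 (SE) with 6 libraries and 0.65 without control 3, where it missed the threshold (limma adjusted p = 0.0821). ZNF691 was at 0.169, 0.332 and 1.20 FPKM (controls 1 to 3) against 1.81, 1.69 and 1.12 (knockdowns 1 to 3). ZNF12, a KRAB protein, was at 0.0878, 0.130 and 1.997 FPKM (controls 1 to 3) against 2.57, 1.37 and 2.59 (knockdowns 1 to 3). In both genes control 3 lay within the knockdown range, and the log2 changes were 0.74 and 1.01, or 1.01 and 1.49 without control 3 (limma adjusted p = 0.0260 and 0.00873). Both genes reached the mean of 1 FPKM only through control 3 and the knockdowns, so these p-values are a description. The span of ZNF691 overlaps that of the glucose transporter gene SLC2A1.

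Of the genes with the smallest p in the lower direction, ZNF329 (chromosome 6, 62799478 to 62818501) was at 5.04, 3.81 and 3.55 FPKM in controls 1 to 3 against 1.20, 3.14 and 1.90 in knockdowns 1 to 3. The groups did not overlap, and control 3 was the lowest control. The log2 change was -0.77 ± 0.34 (SE), or -0.86 without control 3, where it missed the threshold (limma adjusted p = 0.0914). ZNF287, which carries a SCAN domain, was at 6.02, 4.61 and 3.17 FPKM in controls 1 to 3 against 3.12, 2.61 and 2.53 in knockdowns 1 to 3, with control 3 just above the highest knockdown. ZNF660 was at 1.36, 1.66 and 1.76 FPKM in controls 1 to 3 against 0.289, 1.34 and 1.34 in knockdowns 1 to 3. Its separation was set by small gaps, since knockdown 1 alone was low. The log2 changes of ZNF287 and ZNF660 were -0.55 ± 0.31 (SE) and -0.43 ± 0.32 (SE), or -0.75 and -0.39 without control 3 (limma adjusted p = 0.0679 and 0.400).

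The groups overlapped for the other 7 of these lower genes. ZNF655, a Krüppel-like protein found with the signalling adaptor VAV1, was at 9.72 ± 2.27 and 5.97 ± 2.06 FPKM (SD, n = 3) in controls and knockdowns. The KRAB genes ZNF383, ZNF45 and ZNF317 were at 3.74 ± 0.942 and 2.23 ± 0.945 FPKM, 2.07 ± 0.841 and 1.07 ± 0.352 FPKM and 7.34 ± 1.41 and 4.72 ± 1.71 FPKM (SD, n = 3). In these 4 genes control 3 was the lowest control and lay within the knockdown range. ZNF609, a regulator tied to the cohesin loader, was at 1.49 ± 0.860 and 0.672 ± 0.356 FPKM, and ZNF592, a partner in a chromatin complex with ZMYND8, at 1.83 ± 0.504 and 1.09 ± 0.655 FPKM (SD, n = 3). ZNF449, a SCAN domain protein on chromosome X, was at 15.8, 12.2 and 3.23 FPKM in controls 1 to 3 against 2.86, 4.52 and 6.14 in knockdowns 1 to 3. It had the largest lower change of the 125 genes, -0.87 (95% interval -2.22 to 0.47). Without control 3 the log2 change was -1.48, and of the 10 lower genes it was the one that passed (limma adjusted p = 0.0159).

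**Figure D2:**
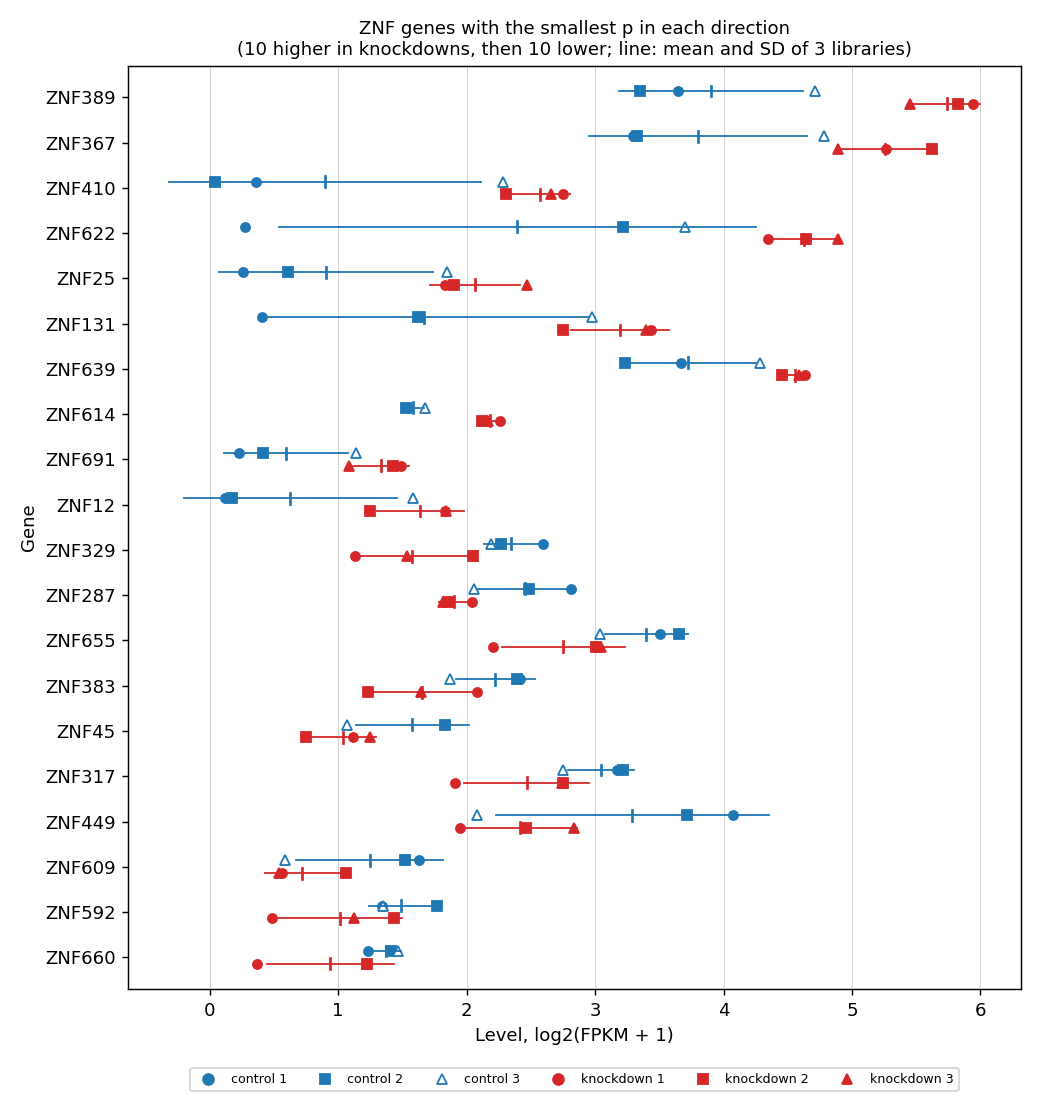
Level in each library, as log2(FPKM + 1), of the 10 ZNF genes with the smallest p in the higher direction and the 10 in the lower, with controls in blue, knockdowns in red and control 3 as an open triangle. Vertical ticks and lines give the mean and SD of 3 libraries, and for ZNF389, ZNF367, ZNF410, ZNF622, ZNF639 and ZNF614 every knockdown stands above every control.

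A list of 42 ZNF proteins with a described role was followed as well. Of these, 39 were in the table and 27 are among the 125 genes. With 6 libraries 0 of the 27 passed in limma, 17 had a log2 change above 0 and the median was 0.20. Under quantile normalization, which moved the median of all tested genes to -0.17, the median of these 27 was 0.064. Without control 3 the median was 0.37, and 10 passed higher and 1 lower, where 20.2% and 7.22% of all tested genes did so.

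Of the genes tied to ribosomes and the nucleolus, ZNF593, a factor of large subunit assembly, was at 0.893, 0.388 and 6.51 FPKM in controls 1 to 3 against 2.49, 6.75 and 3.90 in knockdowns 1 to 3. ZNF330, a nucleolar protein, was at 0.257, 0.103 and 12.4 FPKM in controls 1 to 3 against 3.59, 7.21 and 11.07 in knockdowns 1 to 3. In ZNF330 control 3 was the highest library of all, and in ZNF593 it was above knockdowns 1 and 3. Their log2 changes were 0.91 (95% interval -0.66 to 2.49) and 1.54 (95% interval -0.75 to 3.82). Without control 3 these were 1.65 and 2.71 (limma adjusted p = 0.0178 and 0.00341). ZNF598, the ubiquitin ligase that marks collided ribosomes, was at 5.81, 4.45 and 5.19 FPKM in controls 1 to 3 against 5.07, 5.26 and 4.95 in knockdowns 1 to 3, with a log2 change of -0.0077 (95% interval -0.66 to 0.65), or -0.00056 without control 3.

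Several transcription and nucleic acid binding factors were likewise lowest in controls 1 and 2. ZNF148, a factor of GC-rich promoters, was at 1.19, 1.84 and 11.5 FPKM in controls 1 to 3 against 7.87, 12.4 and 12.4 in knockdowns 1 to 3. ZNF638, which binds cytidine-rich DNA and takes part in silencing of unintegrated retroviral DNA, was at 4.54, 9.42 and 20.3 FPKM in controls 1 to 3 against 18.4, 21.0 and 24.1 in knockdowns 1 to 3. ZNF384, which binds runs of A and T, was at 0.287, 0.386 and 3.12 FPKM in controls 1 to 3 against 1.78, 2.39 and 2.51 in knockdowns 1 to 3. Control 3 was at or above the lowest knockdown in all 3 genes and above all knockdowns in ZNF384. With 6 libraries their log2 changes were 1.46, 1.04 and 0.72. Without control 3 the changes were 2.23, 1.53 and 1.26, and all 3 passed (limma adjusted p = 0.00220, 0.0136 and 0.0102). ZNF207, also called BuGZ, which loads the checkpoint protein BUB3 on kinetochores, was at 14.1, 16.2 and 38.6 FPKM in controls 1 to 3 against 28.5, 32.5 and 32.5 in knockdowns 1 to 3, with control 3 the highest (log2 change 0.56, or 0.996 without control 3, limma adjusted p = 0.0195). ZNF292 was at 0.853 ± 0.677 and 1.53 ± 0.674 FPKM and ZNF143, an activator that binds many promoters, at 1.56 ± 0.915 and 2.11 ± 0.591 FPKM (SD, n = 3). Neither passed without control 3 (limma adjusted p = 0.0873 and 0.138).

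Lower changes without control 3 were seen for ZNF445, which keeps methylation at imprinted regions in human and mouse. It was at 9.74, 10.98 and 3.04 FPKM in controls 1 to 3 against 3.22, 5.18 and 4.61 in knockdowns 1 to 3. Control 3 was the lowest library. The log2 change was -0.61 (95% interval -1.74 to 0.52), or -1.11 without control 3 (limma adjusted p = 0.0246), which made it the gene of the list that passed in the lower direction. ZNF644, a partner of the H3K9 methyltransferases EHMT1 and EHMT2, was at 26.1, 37.1 and 14.5 FPKM in controls 1 to 3 against 22.2, 26.1 and 22.6 in knockdowns 1 to 3. ZNF451, a SUMO ligase, was at 20.2 ± 5.41 and 16.8 ± 3.94 FPKM, ZNF532, a partner of ZNF592, at 24.6 ± 6.89 and 20.6 ± 4.02 FPKM, and ZNF462, known from embryonic stem cells, at 4.65 ± 1.84 and 3.17 ± 0.840 FPKM (SD, n = 3). ZNF521, a progenitor factor, was at 3.66, 4.22 and 0.911 FPKM (controls 1 to 3) against 2.84, 2.43 and 1.23 (knockdowns 1 to 3). None of these 5 passed without control 3, where their log2 changes ran from -0.69 for ZNF462 to -0.39 for ZNF644.

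The other genes of the list overlapped widely between groups. ZNF281, a factor tied to NANOG in embryonic stem cells, was at 10.2 ± 2.26 and 9.66 ± 2.75 FPKM (SD, n = 3). ZNF24, a SCAN domain protein, was at 19.4 ± 7.55 and 21.9 ± 6.15 FPKM, and ZNF277 at 18.7 ± 3.87 and 25.04 ± 10.1 FPKM (SD, n = 3). ZNF217, a partner of the CtBP corepressors, was at 2.40 ± 1.44 and 2.51 ± 1.06 FPKM, ZNF318 at 2.04 ± 0.193 and 2.51 ± 0.807 FPKM and ZNF703 at 0.973 ± 0.400 and 1.25 ± 0.301 FPKM (SD, n = 3). Their log2 changes lay between -0.086 and 0.35.

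**Figure D3:**
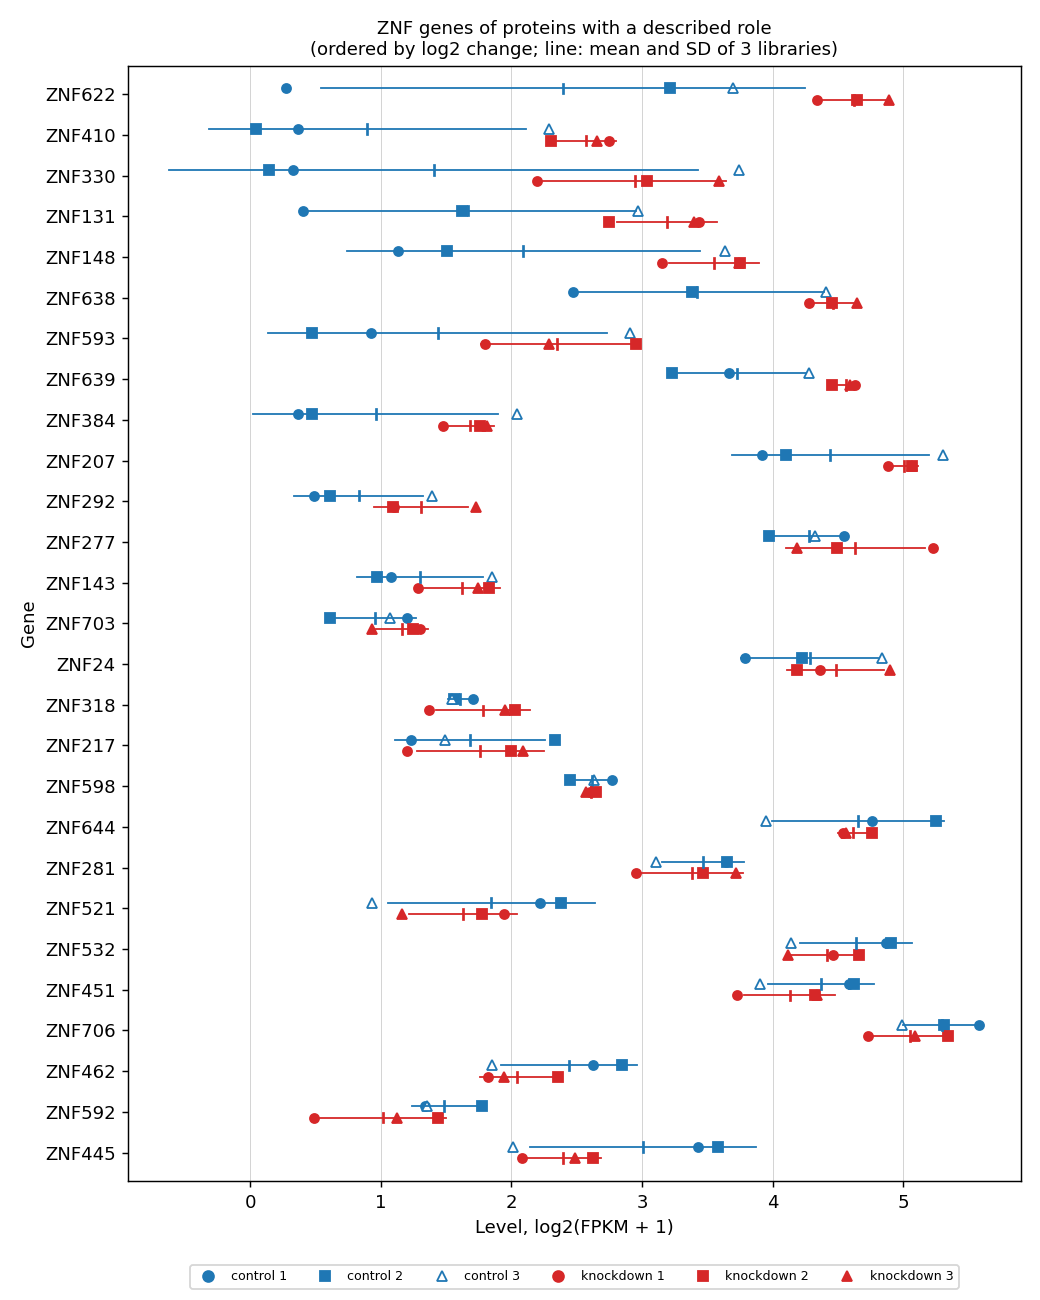
Level in each library, as log2(FPKM + 1), of the 27 expressed ZNF genes with a described role, ordered by log2 change from the top, with controls in blue, knockdowns in red and control 3 as an open triangle. Vertical ticks and lines give the mean and SD of 3 libraries, and in the upper rows, ZNF622 to ZNF207, controls 1 and 2 lie to the left of every knockdown.

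Without control 3, 37 ZNF genes passed the adjusted limma threshold, 30 of them higher in knockdowns (24% of the ZNF genes, against 20.2% of all tested genes) and 7 lower (5.6% against 7.22%). These shares lay near those of genes in general. The log2 changes of the 30 genes ran from 0.85 to 2.88 with a median of 1.67, and those of the 7 genes from -1.48 to -1.04 with a median of -1.19. Of the 30 genes, control 3 lay within the knockdown range in 14, above all 5 other libraries in 10 and between the groups in 6. It lay below all 5 others in 5 of the 7 lower genes and within the knockdown range in 2. In 0 of the 37 genes did control 3 lie within the range of controls 1 and 2. Over the 125 genes control 3 was within the knockdown range alone for 53 (42.4%, and 36.7% of all tested genes) and within the range of controls 1 and 2 alone for 5 (4.0%, and 4.68%). The split between directions moved with the scaling. Under quantile normalization, which moved the median of all tested genes to -0.31 without control 3, 25 ZNF genes passed higher and 20 lower, against 16.3% and 21.3% of all tested genes. Of the 30 and 7 genes, 25 and 7 passed in the same direction there, and 30 and 7 under median-of-ratios scaling, where 30 ZNF genes passed higher and 8 lower (21.9% and 7.87% of all tested genes). With array weights on all 6 libraries, which gave control 3 the lowest weight (0.113), 34 passed higher and 12 lower (23.5% and 9.23% of all tested genes). The groups did not overlap without control 3 for 43 ZNF genes on the higher side and 38 on the lower, where 31.3% and 30.5% of all tested genes did not. Leaving control 3 out and giving it a low weight rest on the same departure of that library. Genes that passed in these settings are therefore a description. Whether control 3 carries the right label was not tested.

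**Figure D4:**
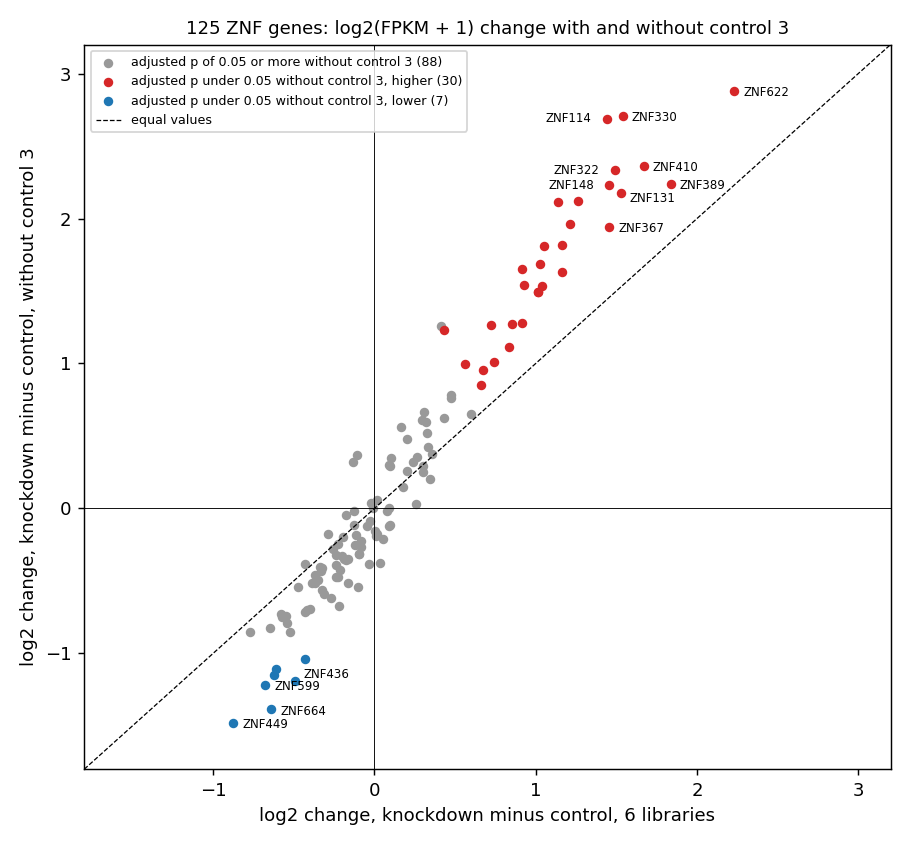
Log2 change of the 125 ZNF genes, in log2(FPKM + 1), with 6 libraries (horizontal axis) and without control 3 (vertical axis), coloured by the limma adjusted p without control 3 at a threshold of 0.05. The 2 values share 5 libraries, and the 30 red and 7 blue genes lie farther from 0 on the vertical axis than on the horizontal one.

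The 5 ZNF genes in which control 3 exceeded the mean of controls 1 and 2 by most were ZNF114, ZNF330, ZNF331, ZNF200 and ZNF565, with differences of 3.73, 3.51, 2.93, 2.58 and 2.55 on the log2(FPKM + 1) scale. ZNF114, a KRAB protein, was at 0.413, 2.42 and 28.2 FPKM in controls 1 to 3 against 23.1, 8.97 and 10.8 in knockdowns 1 to 3. ZNF331, a KRAB gene that is imprinted in human, was at 0.0124, 0.372 and 7.95 FPKM in controls 1 to 3 against 3.76, 2.17 and 7.78 in knockdowns 1 to 3. ZNF200 was at 0.583, 0.389 and 7.85 FPKM (controls 1 to 3) against 4.68, 4.49 and 7.59 (knockdowns 1 to 3). Control 3 was the highest library in all 5 genes. Without it the log2 changes were 2.69, 2.71, 2.11, 2.12 and 1.26, given as a description, since low values in controls 1 and 2 chose these genes. ZNF565, a KRAB protein, was at 3.07, 2.65 and 21.6 FPKM (controls 1 to 3) against 3.84, 7.68 and 17.7 (knockdowns 1 to 3), so knockdown 1 stood with controls 1 and 2 and knockdown 3 with control 3.

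In the other direction the 5 genes were ZNF664, ZNF436, ZNF2, ZNF449 and ZNF599, with differences of -2.24, -2.10, -1.82, -1.81 and -1.63. ZNF664, a finger protein without a KRAB domain, was at 47.2, 38.1 and 8.21 FPKM in controls 1 to 3 against 12.4, 21.3 and 14.4 in knockdowns 1 to 3. ZNF599, a KRAB protein, was at 23.0, 23.5 and 6.85 FPKM in controls 1 to 3 against 7.63, 8.98 and 12.1 in knockdowns 1 to 3. ZNF2, another KRAB protein, was at 14.5, 12.6 and 3.09 FPKM (controls 1 to 3) against 6.45, 5.63 and 6.08 (knockdowns 1 to 3). Control 3 was the lowest library in ZNF664, ZNF436, ZNF2 and ZNF599. Without control 3 the log2 changes were -1.39, -1.19, -1.04, -1.48 and -1.22, again a description, since high values in controls 1 and 2 chose them. These 5 are among the 7 genes that passed lower without control 3, with ZNF445 and ZNF514, a KRAB protein at 9.42, 10.4 and 2.64 FPKM (controls 1 to 3) against 2.62, 5.48 and 4.07 (knockdowns 1 to 3).

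The 125 genes hold 653 transcript rows, with a median of 4 and at most 29 per gene, and 28 genes have a single row. A single transcript made up at least 90% of the level in 83 genes and less than 50% in 4. For 11 genes the transcript with the highest mean differed between the groups, namely ZNF133, ZNF134, ZNF146, ZNF181, ZNF304, ZNF432, ZNF436, ZNF507, ZNF565, ZNF566 and ZNF829. The leading transcript of ZNF829 in knockdowns was at 38.4, 0 and 31.3 FPKM (controls 1 to 3) against 51.4, 0 and 38.8 (knockdowns 1 to 3), and the one leading in controls at 14.7, 38.4 and 19.4 FPKM (controls 1 to 3) against 0, 20.2 and 0 (knockdowns 1 to 3). The former was at 0 in control 2 and knockdown 2 and the latter in knockdowns 1 and 3, while the gene total stayed between 38.8 and 70.8 FPKM. In ZNF436 the leading transcript of the controls was at 23.8, 39.3 and 1.24 FPKM (controls 1 to 3) against 0.920, 0.542 and 13.5 (knockdowns 1 to 3), and that of the knockdowns at 0, 0 and 5.12 FPKM (controls 1 to 3) against 9.03, 21.3 and 0 (knockdowns 1 to 3). Knockdown 3 therefore carried the transcript of controls 1 and 2. In ZNF134 the transcript that led in knockdowns was at 8.48, 0 and 20.4 FPKM (controls 1 to 3) against 27.6, 30.5 and 53.0 (knockdowns 1 to 3).

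ZNF146, a protein made of fingers alone, was at 8.92, 8.00 and 48.6 FPKM in controls 1 to 3 against 18.9, 22.8 and 21.8 in knockdowns 1 to 3. Its span on chromosome 6 overlaps that of ZNF565, and in control 3 a transcript of each gene stood out. That of ZNF146 was at 0, 0 and 36.8 FPKM (controls 1 to 3) against 7.53, 0 and 0.574 (knockdowns 1 to 3), and that of ZNF565 at 0, 0 and 15.5 FPKM (controls 1 to 3) against 0.175, 0.0417 and 0.0828 (knockdowns 1 to 3). The assignment of reads between overlapping genes and isoforms was not tested, and such rows are uncertain. In all, 25 of the 125 genes have a span that overlaps another protein coding gene. Finger arrays also resemble each other between ZNF genes, and the part of reads shared between them was not tested.

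**Figure D5:**
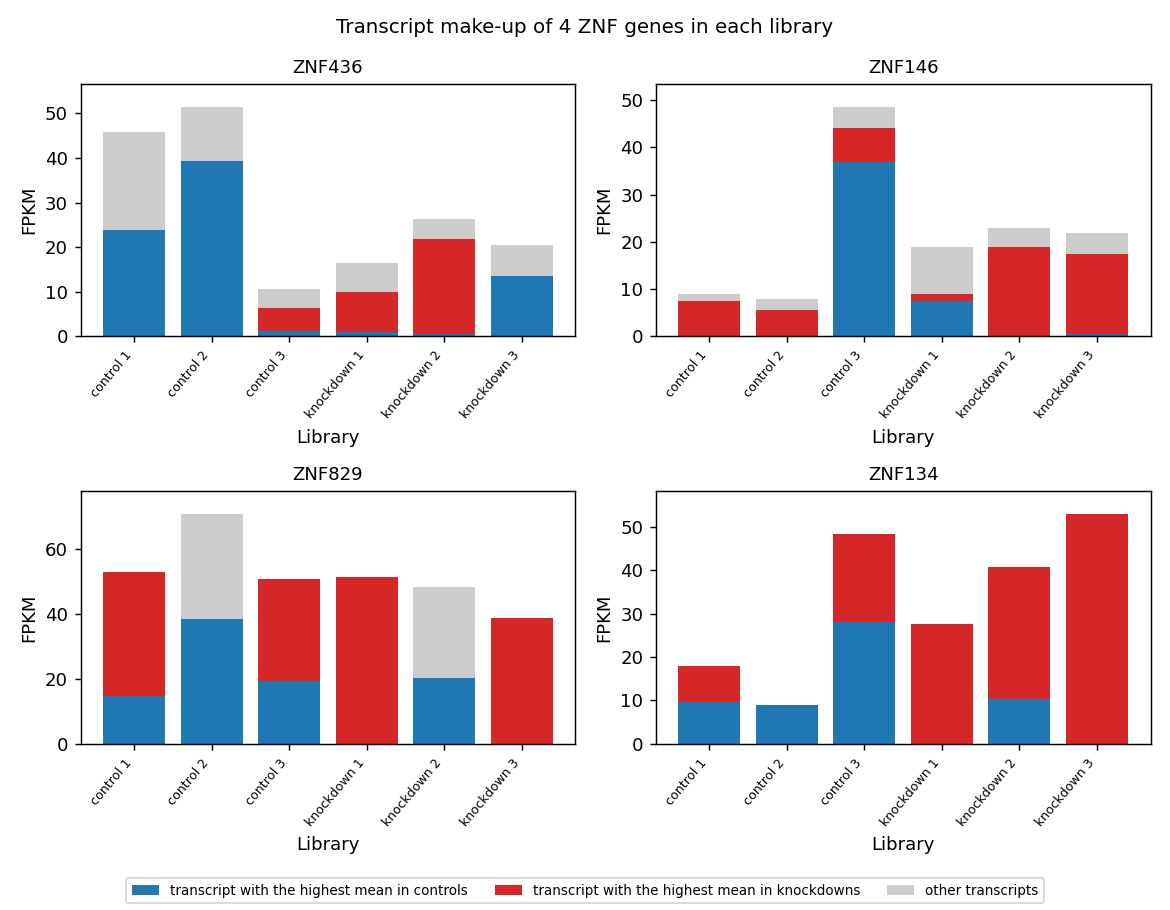
FPKM of ZNF436, ZNF146, ZNF829 and ZNF134 in each library (bars from 0), divided into the transcript with the highest mean in controls (blue), the transcript with the highest mean in knockdowns (red) and all other transcripts (grey). In ZNF829 the total is between 38.8 and 70.8 FPKM while the transcripts that make it up differ within each group.

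The 125 genes lay on 18 chromosomes, with 43 (34.4%) on chromosome 6, which held 8.99% of all tested genes. Chromosomes 3, 1 and 14 followed with 13, 11 and 10 genes. On chromosome 6 the median log2 change was 0.035 for the 43 ZNF genes and 0.067 for all 937 tested genes of that chromosome. Without control 3 these were -0.12 and 0.11, and 11 of the 43 passed higher and 2 lower, where 20.2% and 7.22% of all tested genes did so. Of the 11 genes on chromosome 1, 3 had a log2 change above 0, the median was -0.21 against -0.0071 for all tested genes there, and 0 passed without control 3, where 20.2% and 7.22% of all tested genes passed higher and lower.

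Runs of at least 3 of the genes, each within 500000 bases of the next, numbered 7, and 4 of them were on chromosome 6. The longest (chromosome 6, 45520885 to 46468679) held 12, from ZNF146 to ZNF570. Its members lay on both sides, with 5 above 0 and 7 below, changes from -0.57 to 0.43 and a median of -0.087. Without control 3 only ZNF146 passed, in the higher direction. In that setting 20.2% of all tested genes passed higher and 7.22% lower, to be set beside each run. A run of 5 at 60638748 to 60903923 of the same chromosome holds ZNF667, ZNF583, ZNF582, ZNF471 and ZNF470, with 2 above 0 and 3 below. Of these, ZNF583 was at 35.3, 26.1 and 25.1 FPKM (controls 1 to 3) against 23.4, 25.1 and 23.6 (knockdowns 1 to 3), and ZNF582, whose span overlaps it, at 0.584, 1.17 and 6.29 FPKM (controls 1 to 3) against 6.89, 2.98 and 5.73 (knockdowns 1 to 3). A run of 4 on chromosome 14 (22502738 to 22638290), ZNF891, ZNF140, ZNF84 and ZNF605, had 4 above 0 and a median of 0.19. ZNF891 was the one that passed there without control 3, at 0.0305, 0 and 3.95 FPKM (controls 1 to 3) against 2.92, 1.51 and 3.61 (knockdowns 1 to 3).

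Corepressor genes through which KRAB proteins act were mostly expressed. Of 29 genes in this list, 28 were in the table, 23 were tested and 22 were at 1 FPKM or more in every library. With 6 libraries 0 passed in limma, 11 had a log2 change above 0 and 12 below, with a median of -0.023, or -0.15 after quantile normalization and 0.21 without control 3. TRIM28, the scaffold that KRAB domains bind, was at 5.40, 7.03 and 13.1 FPKM in controls 1 to 3 against 5.04, 9.07 and 10.3 in knockdowns 1 to 3. Its log2 change was -0.028 (95% interval -1.03 to 0.98), or 0.30 without control 3 (limma adjusted p = 0.517). SETDB1, which writes the H3K9 mark at that scaffold, was at 16.6, 20.4 and 7.80 FPKM in controls 1 to 3 against 10.04, 9.10 and 10.2 in knockdowns 1 to 3. Control 3 was the lowest library for SETDB1 and the highest for TRIM28. The HP1 genes CBX1, CBX3 and CBX5 were at 6.14 ± 1.66 and 6.20 ± 0.321 FPKM, 47.5 ± 4.43 and 38.3 ± 3.14 FPKM and 15.3 ± 6.98 and 18.6 ± 5.60 FPKM (SD, n = 3), and in CBX3 every knockdown was below every control. ATF7IP, the partner of SETDB1, was at 6.02 ± 0.810 and 4.80 ± 1.29 FPKM, and its relative ATF7IP2 at 3.65 ± 1.19 and 7.41 ± 2.28 FPKM (SD, n = 3). Of the 23 tested genes, 3 (ATF7IP2, ATRX and SUMO2) were above every control in all knockdowns and 1 (CBX3) was below. Of all tested genes, 4.38% and 2.86% were so. The log2 changes of ATF7IP2, ATRX and SUMO2 were 0.85, 0.48 and 0.69, and their limma adjusted p was 0.775 for each. Without control 3 the changes were 1.03, 0.63 and 0.75 (limma adjusted p = 0.0523, 0.0957 and 0.0932).

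The HUSH complex, which silences transposable elements with SETDB1, was represented by FAM208A (TASOR) at 12.7 ± 4.68 and 12.46 ± 1.25 FPKM, MPHOSPH8 at 16.8 ± 7.58 and 23.3 ± 6.65 FPKM and PPHLN1 at 349 ± 92.8 and 285 ± 33.1 FPKM (SD, n = 3). MORC2, its ATPase partner, was at 2.35 ± 0.486 and 2.73 ± 0.215 FPKM, and MORC3, which silences such elements too, at 62.4 ± 15.6 and 54.8 ± 6.56 FPKM (SD, n = 3). SMARCAD1, a remodeller that binds TRIM28, was at 5.97, 4.87 and 19.2 FPKM in controls 1 to 3 against 15.6, 18.4 and 17.97 in knockdowns 1 to 3. Of the deacetylases, HDAC2 was at 19.7, 16.8 and 104 FPKM in controls 1 to 3 against 66.1, 64.9 and 54.7 in knockdowns 1 to 3 and HDAC1 at 8.03 ± 0.949 and 5.61 ± 2.16 FPKM (SD, n = 3). Control 3 was the highest library for both SMARCAD1 and HDAC2. SUV39H2, a methyltransferase of H3K9, was at 81.1 ± 29.7 and 54.8 ± 5.93 FPKM, TRIM24 at 4.77 ± 0.798 and 6.10 ± 1.11 FPKM and TRIM33 at 7.65 ± 0.865 and 6.02 ± 2.05 FPKM (SD, n = 3). ATRX was at 14.2 ± 3.04 and 20.004 ± 2.76 FPKM and SUMO2 at 7.67 ± 0.628 and 13.3 ± 3.90 FPKM (SD, n = 3). Without control 3, HDAC2 and SMARCAD1 passed higher, with log2 changes of 1.71 and 1.51 (limma adjusted p = 0.00233 and 0.00463). SETDB1, SUV39H2 and EHMT2 passed lower, with -0.85, -0.80 and -1.25 (limma adjusted p = 0.0388, 0.0443 and 0.0276). These were 2 higher and 3 lower of 23 tested, where 20.2% and 7.22% of all tested genes passed higher and lower. ZFP57, the KRAB protein that acts beside ZNF445 at imprinted regions, did not exceed 0.476 FPKM in any library.

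Other zinc finger families, named by prefix, had medians on either side of 0 with 6 libraries, at 0.12 for 18 ZBTB genes (-0.012 under quantile normalization), -0.13 for 7 ZSCAN and ZKSCAN genes and -0.11 for 9 ZFP genes, and 0 of each passed in limma. Without control 3 the medians were 0.32, -0.19 and -0.16, with 5 higher and 1 lower passing among ZBTB genes, 2 higher and 1 lower among ZSCAN and ZKSCAN genes and 2 higher and 0 lower among ZFP genes, where 20.2% and 7.22% of all tested genes passed. The ZSCAN and ZKSCAN genes summed to 115.7 and 89.8 FPKM in controls 1 and 2, 47.3 in control 3 and 46.6 to 68.2 in the knockdowns. Differences between families were not tested. At the limit of the mean of 1 FPKM, the genes just inside were ZNF691 (1.05 FPKM), ZNF3 (1.05) and ZNF609 (1.08), and those just outside ZNF576 (0.986), ZNF395 (0.984) and ZNF300 (0.974).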

How the data were processed

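Per the submitters' processing notes, cutadapt, Bowtie2 2.3.5, StringTie 2.1.7 and the build Sscrofa11.1 were used, with no role or order given; libraries were made with a SMARTer mRNA kit, per the labels. The sources used here do not give the strand setting, splicing or the handling of reads with several positions. The deposited FPKM and TPM values were made by the authors per transcript and library, and the deposited coverage signal gives read depth. Columns with the prefix SL were matched to titles with siL, and 9 value columns that match no sample title were not used. FPKM was summed per gene (29874 genes). In 1758 rows the name cell held a number, and these kept their identifier. Another 129 date-like names were replaced through the accession. Coordinates are those of the RefSeq gene table of Sscrofa11.1, which held all 125 genes.

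The test, two-sided, was limma 3.58.1 (R 4.3.3) over the 10417 genes that averaged 1 FPKM or more, with group as the only term, a trend in the variance prior and a pseudocount of 1 before log2. The fit was run on simulated data with known shifts and independent noise for each gene and library. Such data hold no control that departs across many genes, so that run cannot speak to control 3. Tables were made with pandas 2.3.3 and numpy 2.4.6 under Python 3.11.15, and plots with matplotlib 3.10.9. No counts are in the table, so counting error is unknown. Genes named were the 10 with the smallest p in each direction, the 8 most abundant, those with a described role, those at the limit, and the 5 farthest apart between control 3 and controls 1 and 2 in each direction, and the tested corepressor genes, of which 1 is not reported here. ZNF514, ZNF583, ZNF582, ZNF891, ZNF146, the genes listed for lack of overlap or for their transcripts and those of the runs were added after their values were seen. The genes and lists were chosen with earlier results of these data known. Other settings tried were a pseudocount of 0.1 or 5, all genes or those averaging 5 FPKM, quantile and median-of-ratios scaling, TPM, array weights, the replicate number as a block, and each library left out.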

Additional observations from a re-analysis of the deposited data

How the results depend on the processing

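With 6 libraries 0 ZNF genes passed the adjusted limma threshold under either other pseudocount, without a filter, among genes averaging 5 FPKM, under quantile and median-of-ratios scaling, with TPM and with the replicate block. Array weights passed 46 ZNF genes, 3405 of all tested genes and 7 corepressor genes. With a single library left out, passing ZNF genes ranged from 0 to 37, all tested genes from 0 to 2854 and corepressor genes from 0 to 5, and each value above 0 came from leaving out control 3. Combinations chosen after seeing the data, without control 3, gave 45, 3910 and 6 with quantile normalization and 38, 3098 and 6 with median-of-ratios scaling. The 15 ZNF genes without overlap became 7 of 57 among genes averaging 5 FPKM (12.3%, against 6.24% of all genes there). With a library left out there were 17 to 81, where fewer libraries can overlap. Without controls 1, 2 and 3 they numbered 17, 19 and 81 (13.6%, 15.2% and 64.8%, against 9.67%, 11.4% and 61.9% of all tested genes). Without knockdowns 1, 2 and 3 there were 26, 26 and 23 (20.8%, 20.8% and 18.4%, against 13.6%, 13.4% and 12.3% of all tested genes), and the added combinations gave 89 and 82 (71.2% and 65.6%, against 66.5% and 61.7%). The median ZNF change of 0.010 ranged from -0.047 to 0.054 with a library left out. It was -0.17 under quantile normalization, -0.10 with TPM, as for all tested genes (-0.17 and -0.10), and -0.33 without control 3 under quantile normalization.

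Of 56 named ZNF genes, 45 kept their direction in every alternative. The other 11 had log2 changes of at most 0.41 in size and passed under none of the alternatives in which they turned, and the cause was not tested. Under quantile normalization ZNF217, ZNF318 and ZNF703 turned to -0.14, -0.017 and -0.14, and to -0.33, -0.14 and -0.22 where control 3 was also left out. With array weights ZNF217 turned to -0.020 and ZNF598 to 0.042. Median-of-ratios scaling without control 3 turned ZNF598 to 0.051 and ZNF883 to 0.040. With a single library left out, the lowest and highest values were -0.15 and 0.40 for ZNF217, -0.048 and 0.48 for ZNF24, -0.27 and 0.13 for ZNF281, -0.28 and 0.19 for ZNF3, -0.68 and 0.048 for ZNF521, -0.10 and 1.26 for ZNF565, -0.091 and 0.069 for ZNF598, -0.39 and 0.26 for ZNF644 and -0.45 and 0.15 for ZNF883.

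For same-numbered libraries, correlations of deviations from the group means were 0.085, 0.063 and 0.226 for numbers 1, 2 and 3. The last was the highest of all pairs, while control 1 correlated more with knockdown 2 (0.0995) and control 2 with knockdown 1 (0.111). Deviations within a small group depend on each other, so these values cannot decide whether the number marks a pairing. The main fit did not use it as one. With the replicate number as a block, 0 genes passed, genes at an unadjusted p under 0.05 went from 436 to 747 of all tested, and the median ZNF change stayed 0.010. Depth in reads is unknown.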
